A study of Mus musculus with 10 samples.

Results

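The 10 genes described here are the early growth response factors *Egr1*, *Egr2* and *Egr3*, the Krüppel-like factors *Klf2*, *Klf4*, *Klf6* and *Klf10*, and the immediate early or antiproliferative genes *Ier2*, *Ier3* and *Btg2*. They were picked by gene symbol, at a time when earlier results of these data were known, and each symbol matched 1 of the 54532 genes in the table. All 10 passed the filter on low values, which left 24508 genes to test. The RNA-seq libraries came from 10 neural retinas of BALB/c mice aged 2 months, an albino strain whose eyes lack the pigment that shields the retina. All mice spent 12 hr in the dark and then 1 day either under normal light of 200 lux (NL, 5 retinas) or under intense light of 15000 lux (LD, 5 retinas). No allele, transgene or drug distinguished the groups, and each group has 1 light level and 1 time point. The study used this exposure to look for genes that light damage induces in the retina.

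EGR and KLF proteins are zinc finger transcription factors that bind GC-rich DNA near gene starts. Many of their genes are primary response genes: growth factors, cytokines, neuronal activity or stress switch them on through transcription factors that are already in the cell, with no need for new protein synthesis. The pulse of RNA is usually short, so a sample taken after a long stimulus need not show the first response. In neurons *Egr1* is widely used as a marker of recent activity, and in the retina glia and vessels also express members of these families.

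The table gives FPKM, fragments per kilobase of gene, scaled to library size, which puts genes and retinas on a common scale. The library size used was the sum of reads times a factor of 0.951 to 0.968 in NL and 1.041 to 1.069 in LD. Small differences between the groups therefore depend on this factor. The retinas had 18965090 to 26832535 reads. All 6 rod markers were above 1 FPKM in every retina, as the labelled tissue requires, and they were lower in LD, with a summed level of 7511 to 9236 FPKM in NL and 1031 to 2204 FPKM in LD. Markers of lens and cornea summed to 3.27 FPKM or less. Those of retinal pigment epithelium summed to 51.6 to 135 FPKM in NL and 60.7 to 117 FPKM in LD. Those of red blood cells summed to 18.3 to 37.5 FPKM in NL and 8.38 to 24.5 FPKM in LD. The retinas thus also held RNA of tissue outside the neural retina. RNA from whole retinas cannot tell fewer cells of a type apart from less RNA per cell. Within groups, LD-4 and LD-6, NL-5 and NL-7, and LD-1 and LD-7 were closer to each other than the other 17 pairs were, with a chi-square per gene of 2.65 to 3.65 against 12.2 to 43.4. The study calls the retinas of a group biological replicates. The labels do not say whether 2 retinas came from 1 mouse, so p-values measure the spread between these samples, which may be technical.

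Promoter sequence is shown for some genes that passed the test and some that did not. *Egr2* had the largest change and *Klf6* the most uniform one among retinas. *Klf2*, *Klf4* and *Btg2* did not pass the test and were picked because their windows hold a known response motif. The RefSeq windows on GRCm38.p6 run from 250 bases before to 50 bases after a gene's start, and 6 of the 10 genes had one: these 5 and *Ier3*. *Egr1*, *Egr3*, *Klf10* and *Ier2* had none. *Ier3* did not pass the test either, and its window, which holds no such motif, is not printed. The bases before the start are printed 5′ to 3′ on the gene's strand, cut back where an annotated transcript begins earlier. Capitals mark the EGR site GCGNGGGCG or the full cAMP response element TGACGTCA, on either strand. The parts are chr10:67535249-67535474 (plus strand) for *Egr2*, chr13:5861239-5861481 (plus strand) for *Klf6*, chr8:72318812-72319032 (plus strand) for *Klf2*, chr4:55532476-55532725 (minus strand) for *Klf4* and chr1:134079156-134079405 (minus strand) for *Btg2*.
Egr2: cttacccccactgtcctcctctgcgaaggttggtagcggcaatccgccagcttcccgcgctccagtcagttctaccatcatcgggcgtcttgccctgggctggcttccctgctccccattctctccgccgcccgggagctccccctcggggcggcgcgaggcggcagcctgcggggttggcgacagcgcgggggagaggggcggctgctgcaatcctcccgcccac
Klf6: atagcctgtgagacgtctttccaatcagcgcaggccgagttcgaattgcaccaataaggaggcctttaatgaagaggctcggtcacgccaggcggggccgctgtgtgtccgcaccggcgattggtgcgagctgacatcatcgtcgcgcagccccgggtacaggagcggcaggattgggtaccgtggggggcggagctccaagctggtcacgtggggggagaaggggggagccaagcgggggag
Klf2: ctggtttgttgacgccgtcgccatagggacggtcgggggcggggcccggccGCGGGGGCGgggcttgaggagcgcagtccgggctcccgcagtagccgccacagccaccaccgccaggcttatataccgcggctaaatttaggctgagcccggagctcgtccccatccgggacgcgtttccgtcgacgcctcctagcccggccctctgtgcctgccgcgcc
Klf4: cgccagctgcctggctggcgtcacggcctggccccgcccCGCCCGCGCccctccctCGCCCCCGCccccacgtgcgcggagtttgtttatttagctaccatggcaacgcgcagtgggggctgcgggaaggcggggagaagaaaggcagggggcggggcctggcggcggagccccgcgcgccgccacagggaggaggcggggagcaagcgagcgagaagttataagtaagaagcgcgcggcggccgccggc
Btg2: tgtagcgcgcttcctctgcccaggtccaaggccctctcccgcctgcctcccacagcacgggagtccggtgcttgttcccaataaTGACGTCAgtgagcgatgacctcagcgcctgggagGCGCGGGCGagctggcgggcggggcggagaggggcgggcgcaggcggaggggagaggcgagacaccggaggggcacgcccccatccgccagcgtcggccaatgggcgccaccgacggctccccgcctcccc

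An EGR site, the GC-rich element that EGR proteins bind, was present in 3 of the 6 windows. It began 199 bases before the start of *Klf2*, 211 and 194 bases before that of *Klf4*, and 131 bases before that of *Btg2*. Distances here are counted from the RefSeq start, which for *Klf2* lies past the last printed base. Of all 32851 RefSeq windows, 5.55% hold this motif. The full cAMP response element, the site of CREB proteins, lay 166 bases before the start of *Btg2* and is present in 1.79% of windows. Its short form TGACG, which overlaps the full form, was present in the windows of *Klf2*, *Klf4* and *Btg2* and is in 20.8% of windows. The CArG box bound by SRF (1.63% of windows), the AP-1 site TGANTCA (7.81%), the STAT site TTCNNNGAA (8.30%) and TATAAA (13.6%) were found in none of the 6. The windows of *Egr2*, *Klf6* and *Ier3* held none of the 7 motifs, which says only that these letters are not in those 300 bases. The member windows were GC-rich, with a GC content from 54% for *Ier3* to 74.3% for *Klf4* against a median of 52.7% over all windows. They held 10 to 40 CpG dinucleotides, with a median of 7 over all windows.

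Of the 10 genes, 5 were higher in LD: *Egr1*, *Egr2*, *Egr3*, *Klf6* and *Klf10*. The other 5 (*Klf2*, *Klf4*, *Ier2*, *Ier3* and *Btg2*) did not pass the test, and none was lower. A call required an adjusted p below 0.01 together with more than a 2-fold change, in limma on log2(FPKM + 0.1) with Benjamini-Hochberg adjustment over all genes tested. By this rule 4.13% of the genes tested were higher and 2.37% lower. With no minimum fold, the same adjusted p was reached by the same 5 genes and by 17.0% of all genes tested. The median log2 fold change of the 10 genes was 0.92, against -0.01 over all genes tested. For 6 of the 10, the 5 above and *Ier2*, the lowest LD retina exceeded the highest NL retina, which held for 11.8% of all genes tested. For each of these 6 the two-sided exact permutation p was 0.00794, the smallest that 5 retinas against 5 can give. This value follows from the lack of overlap and adds nothing to it. *Egr2* reached the 0.1 FPKM of the filter in only 1 NL retina. It entered these counts through the LD retinas, so its place in them is a description only.

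**Figure D1:**
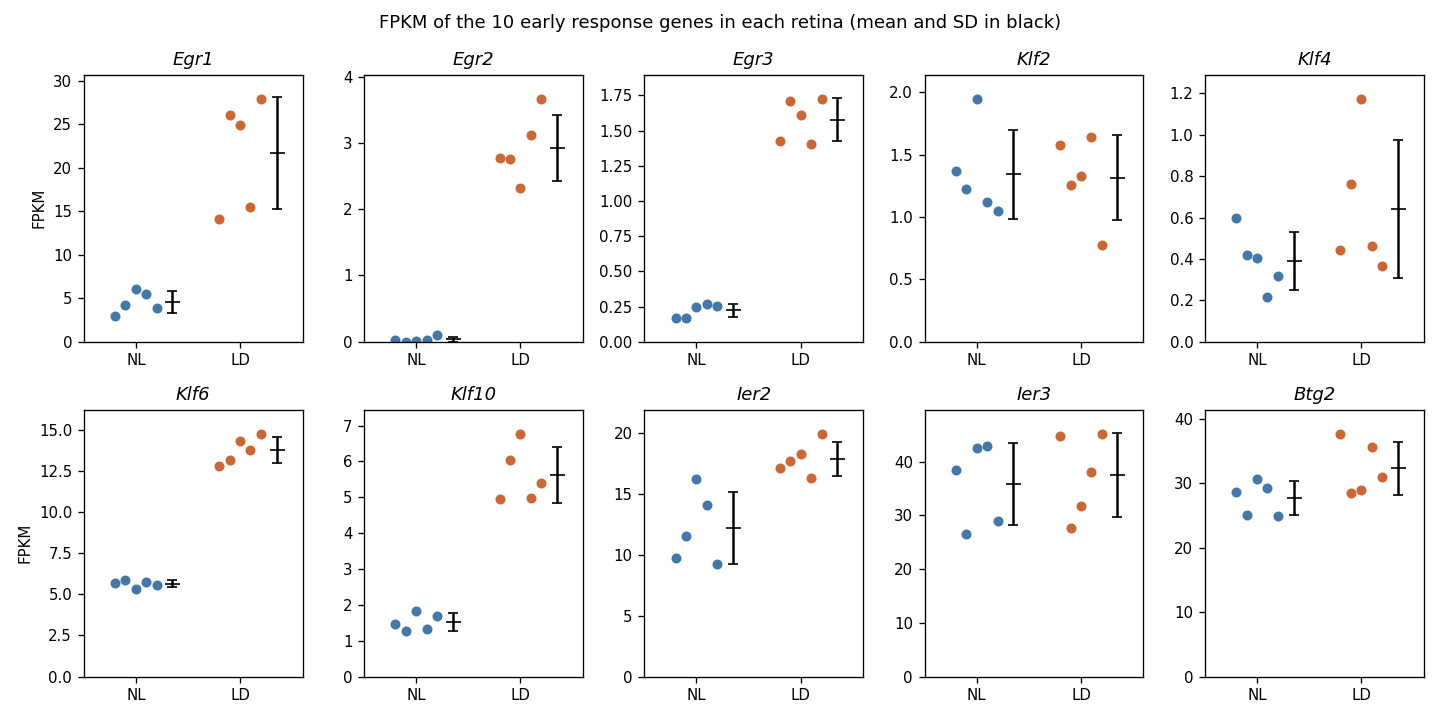
FPKM of each gene (vertical axis, linear from 0, a scale per panel) in the 5 NL retinas (blue) and the 5 LD retinas (orange), with the mean and SD of each group in black. The groups are apart for *Egr1*, *Egr2*, *Egr3*, *Klf6*, *Klf10* and, by a small margin, *Ier2*, and they overlap for *Klf2*, *Klf4*, *Ier3* and *Btg2*.

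*Egr1* (ENSMUSG00000038418, GRCm38 chr18:34859823-34864984) encodes the founding EGR factor, which growth factors and synaptic activity induce. Its level was 2.91, 4.27, 6.11, 5.48 and 3.87 FPKM in retinas NL-1, NL-4, NL-5, NL-7 and NL-8. In retinas LD-1, LD-4, LD-6, LD-7 and LD-8 it was 14.1, 26.1, 24.9, 15.4 and 27.9 FPKM. Every LD retina was more than double the highest NL retina, and LD-1 and LD-7, one of the close pairs, were lower than the other LD retinas. The mean rose from 4.53 ± 1.28 to 21.7 ± 6.40 FPKM (SD, n = 5 per group), which is a log2 fold change of 2.23 (SE 0.24, adjusted p = 7.90e-05 in limma). The spread of *Egr1* within groups was larger than that of 72.4% of the genes tested.

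*Egr2* (ENSMUSG00000037868, chr10:67535475-67542188), also called Krox20, is best known for control of myelination by Schwann cells and of hindbrain patterning. In the order above, NL retinas had 0.0275, 0, 0.0145, 0.0277 and 0.103 FPKM, which are 2, 0, 1, 2 and 9 reads. The LD retinas had 2.78, 2.76, 2.32, 3.11 and 3.66 FPKM, from 176 to 277 reads each. *Egr2* thus went from a handful of reads to a level above that of *Egr3* in every LD retina. Only 1 of the NL retinas reached the 0.1 FPKM of the filter, so *Egr2* entered the test through the LD retinas.

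The mean of *Egr2* was 0.0345 ± 0.0398 FPKM in NL and 2.93 ± 0.500 FPKM in LD (SD, n = 5 per group). The log2 fold change was 4.52 (SE 0.21, adjusted p = 2.19e-07 in limma), larger than that of 99.9% of genes tested, and its size depends on the pseudocount added to low values. It was 1.92 with a pseudocount of 1 FPKM, 6.46 with 0.01 FPKM and 6.75 in limma-voom on reads. The ratio of summed reads, scaled to depth, was 78.1 (95% exact interval 46.3 to 143, counting error only), from 14 reads in NL and 1114 in LD. Retina NL-8 held 9 of the 14, and without it the ratio was 167 (71.5 to 516).

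*Egr3* (ENSMUSG00000033730, chr14:70077203-70082614) encodes a factor that acts beside EGR1 in neurons and lymphocytes. NL retinas had 0.170, 0.171, 0.246, 0.267 and 0.255 FPKM, and LD retinas 1.42, 1.71, 1.61, 1.41 and 1.72 FPKM. The groups were far apart and each was narrow, with LD-1 and LD-7 again the lowest of their group. The mean rose from 0.222 ± 0.0476 to 1.58 ± 0.153 FPKM (SD, n = 5 per group), which is a log2 fold change of 2.39 (SE 0.15, adjusted p = 2.04e-06 in limma). The NL values rest on few reads, 108 over the 5 retinas, and the ratio of summed reads was 7.04 (5.75 to 8.69).

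*Klf6* (ENSMUSG00000000078, chr13:5861482-5870394) encodes a widely expressed factor linked to injury responses and axon growth. It had 5.70, 5.88, 5.35, 5.76 and 5.56 FPKM in NL and 12.8, 13.2, 14.3, 13.8 and 14.8 FPKM in LD. Retinas of a group were nearly the same, and the lowest LD retina was more than double the highest NL retina. The mean rose from 5.65 ± 0.202 to 13.8 ± 0.803 FPKM (SD, n = 5 per group), with a log2 fold change of 1.27 (SE 0.05, adjusted p = 7.14e-08 in limma). This is the smallest change among the 5 called genes and the one with the smallest adjusted p. The spread of *Klf6* within groups was larger than that of only 6.89% of the genes tested.

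*Klf10* (ENSMUSG00000037465, chr15:38291463-38300706), first described as a TGFβ-inducible early gene, encodes a repressor that mediates part of TGFβ signalling. It had 1.47, 1.28, 1.84, 1.32 and 1.70 FPKM in NL. The LD retinas had 4.97, 6.04, 6.77, 4.97 and 5.40 FPKM, highest in LD-6 and LD-4. All of them were above all NL retinas, and the mean rose from 1.52 ± 0.241 to 5.63 ± 0.775 FPKM (SD, n = 5 per group). The log2 fold change was 1.82 (SE 0.12, adjusted p = 3.03e-06 in limma).

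*Klf2* (ENSMUSG00000055148, chr8:72319033-72321656) encodes the factor that endothelial cells induce under laminar blood flow. Its level was 1.37, 1.22, 1.95, 1.12 and 1.05 FPKM in NL and 1.58, 1.25, 1.33, 1.64 and 0.778 FPKM in LD. The groups lay over each other, and the highest and the lowest value of all were NL-5 and LD-8. The means were 1.34 ± 0.359 and 1.32 ± 0.341 FPKM (SD, n = 5 per group), with a log2 fold change of -0.03 (SE 0.22, adjusted p = 0.933 in limma). The sign of this difference turned to positive under other scalings, with a log2 fold change of 0.09 without the library factor. None of the 8 endothelial markers was called, and their summed level was 40.9 to 52.0 FPKM in NL and 56.3 to 91.5 FPKM in LD. Most of that sum was *Kdr*, at 30.0 FPKM in NL and 49.8 FPKM in LD on average, so the sum follows mainly this gene. *Kdr* had a log2 fold change of 0.70 (adjusted p = 0.00876 in limma) and missed the call on fold alone. *Cldn5* had 5.58 and 9.62 FPKM, and the rest had log2 fold changes of 0.03 to 0.40.

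*Klf4* (ENSMUSG00000003032, chr4:55527143-55532466) encodes a factor of epithelial barriers, vessels and pluripotent cells that also limits axon growth of retinal ganglion cells. It had 0.598, 0.417, 0.404, 0.216 and 0.318 FPKM in NL and 0.444, 0.760, 1.17, 0.461 and 0.368 FPKM in LD. Only LD-4 and LD-6 exceeded the highest NL retina, and the groups overlapped. The means were 0.391 ± 0.141 and 0.641 ± 0.333 FPKM (SD, n = 5 per group), with a log2 fold change of 0.54 (SE 0.31, adjusted p = 0.234 in limma). The within-group spread of *Klf4* was larger than that of 78.1% of the genes tested, the most of the 10 genes, and its reads numbered 130 in NL and 217 in LD.

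*Ier2* (ENSMUSG00000053560, chr8:84661331-84662852) is an immediate early gene that growth factors induce. It had 9.77, 11.6, 16.2, 14.1 and 9.27 FPKM in NL and 17.1, 17.7, 18.3, 16.3 and 19.9 FPKM in LD. The groups did not overlap, but LD-7 and NL-5 nearly touched, and the spread was larger in NL. The means were 12.2 ± 2.95 and 17.9 ± 1.36 FPKM (SD, n = 5 per group). The log2 fold change was 0.58 (SE 0.14) and the adjusted p in limma was 0.0119, so *Ier2* missed both parts of the call. Over the alternative settings the adjusted p ran from 0.00112 to 0.0328, and the fold change stayed under 2, with a log2 value of at most 0.73.

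*Ier3* (ENSMUSG00000003541, chr17:35821684-35822923), also called IEX-1, encodes a stress-inducible regulator of cell survival. It was the most abundant of the 10 genes in both groups, with 38.5, 26.6, 42.5, 42.9 and 28.9 FPKM in NL and 44.7, 27.6, 31.7, 38.1 and 45.2 FPKM in LD. The groups overlapped almost fully. The means were 35.9 ± 7.68 and 37.5 ± 7.81 FPKM (SD, n = 5 per group), with a log2 fold change of 0.06 (SE 0.18, adjusted p = 0.829 in limma). Leaving out NL-4, NL-8, LD-1 or LD-8 turned its sign, to a log2 fold change of -0.04 at the lowest.

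*Btg2* (ENSMUSG00000020423, chr1:134075170-134079120) encodes an antiproliferative protein that p53 induces and that promotes removal of the poly(A) tail from mRNA. It had 28.6, 25.0, 30.6, 29.3 and 24.9 FPKM in NL and 37.6, 28.4, 28.9, 35.6 and 30.9 FPKM in LD. The groups overlapped, with LD-1, LD-7 and LD-8 above the highest NL retina. The means were 27.7 ± 2.60 and 32.3 ± 4.12 FPKM (SD, n = 5 per group), with a log2 fold change of 0.22 (SE 0.09, adjusted p = 0.108 in limma). Over the alternative settings its adjusted p ran from 0.00691, in limma-voom on reads, to 0.213. The log2 fold change was at most 0.36. The two-sided exact permutation p was 0.0952 for *Btg2*, 0.143 for *Klf4*, 0.698 for *Ier3* and 0.881 for *Klf2*.

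**Figure D2:**
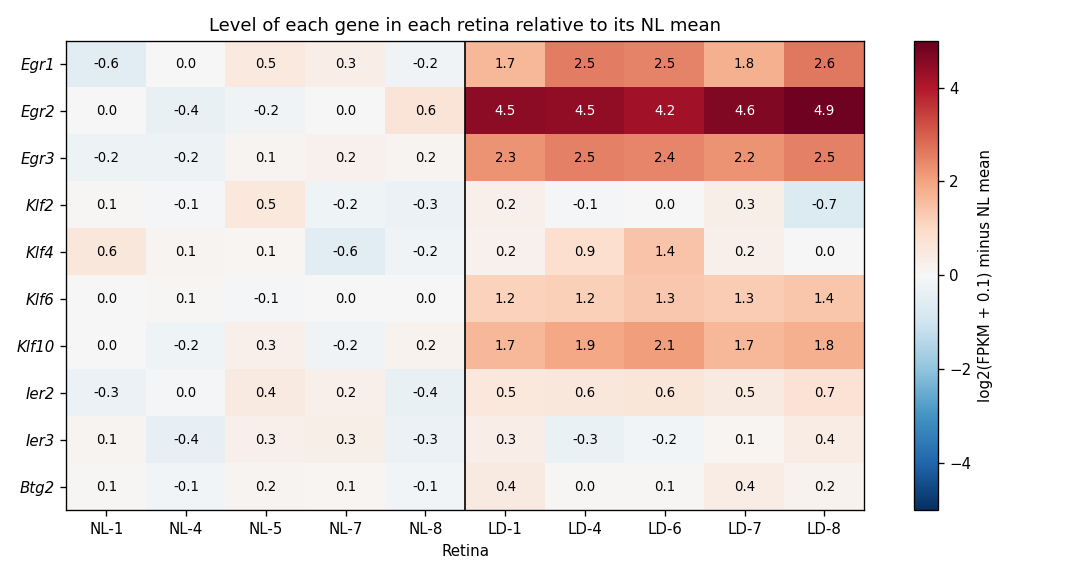
Difference of log2(FPKM + 0.1) from the NL mean for each gene (rows) in each retina (columns), with red above and blue below that mean. The LD retinas of *Egr1*, *Egr2*, *Egr3*, *Klf6* and *Klf10* are all red, and those of *Ier2* and *Btg2* are all above the NL mean by less, while *Klf2*, *Klf4* and *Ier3* have LD values of both signs.

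The order of FPKM levels among the 10 genes changed with light. In NL it ran from *Ier3* and *Btg2*, which overlapped, through *Ier2*, then *Klf6* and *Egr1*, which overlapped, then *Klf10* and *Klf2*, which overlapped, then *Klf4* and *Egr3*, which overlapped, to *Egr2*. In LD *Ier3* and *Btg2* still led and overlapped. *Egr1*, at 21.7 FPKM, came next and overlapped *Ier2*, at 17.9 FPKM. *Klf6*, *Klf10* and *Egr2* followed without overlap, and *Egr3*, *Klf2* and *Klf4* came last, each overlapping the next. The order by medians was the same as that by means in both groups.

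Among retinas of the same group the 10 genes did not move as 1 block. The deviations of log2(FPKM + 0.1) from the group means were compared for all 45 pairs of genes over the 10 retinas. Of these, 22 correlations were positive, 3 had an unadjusted exact permutation p under 0.05, and none passed Benjamini-Hochberg adjustment. The highest were *Ier3* with *Btg2*, *Egr1* with *Ier2* and *Egr1* with *Egr3*. For *Egr1* and *Ier2*, Pearson's r was 0.760 (exact permutation p = 0.00493, adjusted p = 0.222) and Spearman's rho 0.855 (p = 0.00361, adjusted p = 0.163). It was 0.782 without the 2 retinas farthest from the median of *Egr1*, 0.907 in NL alone and 0.806 in LD alone. For *Ier3* and *Btg2*, r was 0.816 (exact permutation p = 0.0157, adjusted p = 0.353) and rho 0.673. For *Egr1* and *Egr3*, r was 0.754 (exact permutation p = 0.0263, adjusted p = 0.395) and rho 0.600. The sign of r differed between the NL and the LD retinas for 26 of the 45 pairs. These permutations treat the retinas of a group as independent, but 3 pairs of retinas were close, so the p may be too small. In LD, *Egr1* and *Egr3* were both lowest in the close pair LD-1 and LD-7.

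*Ier3* and *Btg2* followed another difference between retinas, seen after the values were known. *Xist*, the RNA of the inactive X chromosome, was at 159 to 194 FPKM in NL-4, NL-8, LD-4 and LD-6 and at 0.118 FPKM or less in the other 6 retinas. *Ier3* was 26.6 to 31.7 FPKM in the 4 retinas with *Xist* and 38.1 to 45.2 FPKM in the other 6, with no overlap. *Btg2* was lower with *Xist* within each group without overlap, at 24.9 and 25.0 against 28.6 to 30.6 FPKM in NL and at 28.4 and 28.9 against 30.9 to 37.6 FPKM in LD. Both genes are on autosomes, and 2.47% of all genes tested were lower with *Xist* in both groups without overlap. Counting either direction, so long as it was the same in both groups, the share was 4.98%. With *Xist* as a covariate in limma, added after the values were seen, the SE of *Ier3* fell to 0.06 and its adjusted p was 0.504. That of *Btg2* became 0.0112 at the same log2 fold change of 0.22, and no call among the 10 genes changed. The close pair LD-4 and LD-6 is among the retinas with *Xist*, and the close pairs NL-5 with NL-7 and LD-1 with LD-7 are among those without it. No close pair was thus split by *Xist*, and what else these retinas share was not tested.

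**Figure D3:**
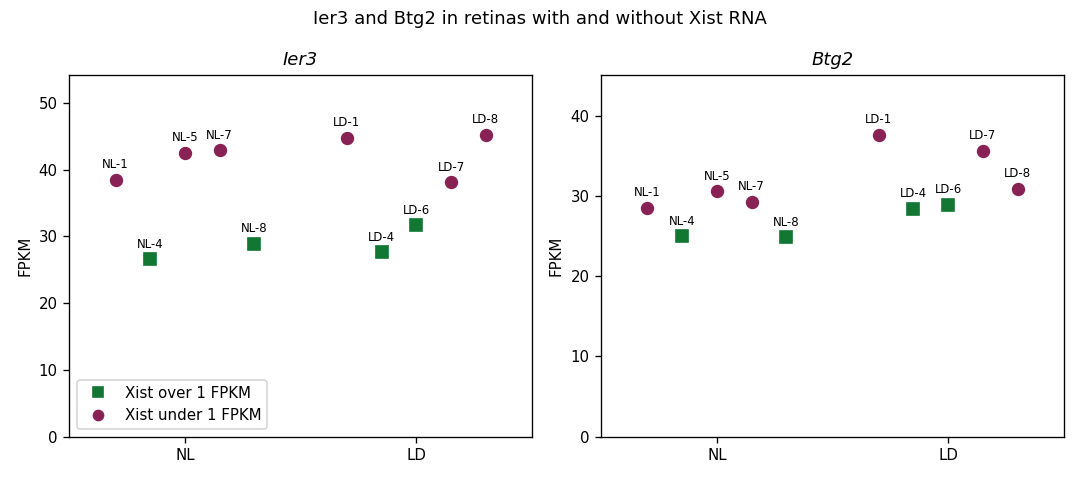
FPKM (vertical axis, linear from 0) of *Ier3* and *Btg2* in each retina by light group, with green squares for the 4 retinas in which *Xist* was over 1 FPKM and purple circles for the other 6. All squares of *Ier3* lie at or under 31.7 FPKM and all circles at or over 38.1 FPKM.

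The genes most like each of the 10 were sought among 12428 protein-coding genes averaging 1 FPKM or more, by Pearson's r of the within-group deviations over 10 retinas. For the called genes they were *Hecw2* and *Slc6a17* for *Egr1* (r 0.976 each), *Ceacam10* and *Chp1* for *Egr2* (0.948 and 0.928), *Tpm3* and *Prex2* for *Egr3* (0.928 and 0.920), *Mypop* and *Ubald1* for *Klf6* (0.945 and 0.921) and *S100a11* and *Smim7* for *Klf10* (0.950 and 0.938). Of these, *S100a11* was itself called, from 1.98 to 25.1 FPKM. For the others they were *Galnt11* and *Mrpl18* for *Klf2* (0.946 and 0.941), *Btd* and *Pea15a* for *Klf4* (0.961 and 0.960), *Tmlhe* and *Pkm* for *Ier2* (0.974 and 0.968), *Zscan29* and *Fscn2* for *Ier3* (0.970 and 0.950) and *Smn1* and *Dnajc5* for *Btg2* (0.979 and 0.972). *Tmlhe*, *Zscan29* and *Fscn2* were called lower in LD. These r are the highest of very many over 10 retinas and are a description with no test.

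The remaining EGR gene and the EGR corepressors were not called. *Egr4* had 0.368 FPKM on average in both groups, with a log2 fold change of -0.02 (SE 0.22, adjusted p = 0.965 in limma). *Nab1* and *Nab2* encode proteins that bind EGR factors and repress their targets, and EGR factors can induce *Nab2*. *Nab2* had 3.51 FPKM in NL and 6.87 FPKM in LD, a log2 fold change of 0.96 (SE 0.20, adjusted p = 0.00415 in limma), just under 2-fold. It was called, with a log2 fold change of 1.08 to 1.11, on TPM, without the library factor and in limma-voom, and with 1.05 to 1.06 when NL-5, NL-7, LD-1 or LD-7 was left out. Other settings missed on the adjusted p in limma. It was 0.0146 with the closest pairs averaged, and 0.0105 over the 8 retinas whose numbers both groups share (0.0263 with a replicate block). Without LD-4, LD-6, LD-8, NL-4 or NL-8 it was 0.0117 to 0.0125. *Nab1* had 6.39 and 7.67 FPKM (log2 fold change 0.26, adjusted p = 0.113 in limma).

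Of the 13 other KLF genes, 11 were tested and 1, *Klf5*, was called higher. *Klf5*, a factor of proliferating epithelia, went from 2 to 8 reads per NL retina to 18 to 34 reads per LD retina, with means of 0.0377 and 0.222 FPKM. Its log2 fold change was 1.22 (SE 0.20, adjusted p = 0.00112 in limma), and with a pseudocount of 1 FPKM it was 0.24 and not called. No NL retina had *Klf5* at 0.1 FPKM, so it too entered the test through LD. *Klf11*, the closest relative of *Klf10*, had 2.26 FPKM in NL and 4.55 FPKM in LD, a log2 fold change of 0.98 (SE 0.10, adjusted p = 4.59e-05 in limma), also just under 2-fold. It was called, with 1.11 to 1.14, under the same 3 scalings, and with 1.02 to 1.04 when NL-1, NL-8 or LD-6 was left out. *Klf9* and *Klf12* had log2 fold changes of -0.25 and -0.51 with adjusted p of 0.00367 and 3.70e-04 in limma. *Klf9*, a target of glucocorticoid and thyroid hormone receptors, was the most abundant KLF gene of either group, at 36.1 FPKM in NL and 30.3 FPKM in LD. The other 7 (*Klf1*, *Klf3*, *Klf7*, *Klf8*, *Klf13*, *Klf15* and *Klf16*) had log2 fold changes from -0.33 to 0.37 and adjusted p over 0.01. *Klf14* had no read and *Klf17* at most 2 reads in a retina. The median log2 fold change of the 11 was 0.27.

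Of the 7 other IER and BTG genes, 6 were tested and none was called by limma. *Ier5*, a relative of *Ier2*, had 6.88 and 9.46 FPKM (log2 fold change 0.45, SE 0.10, adjusted p = 0.00520 in limma), and *Btg1*, the closest relative of *Btg2*, had 16.4 and 15.0 FPKM (-0.13, SE 0.06, adjusted p = 0.134). *Tob2*, named after its values were seen, encodes another antiproliferative protein of the BTG group and had the largest difference of the list, from 44.6 to 23.8 FPKM, a log2 fold change of -0.92 (SE 0.09, adjusted p = 4.82e-05 in limma) that did not reach 2-fold. With no minimum fold and an adjusted p under 0.05, 5 of the 6 were past the threshold, 3 higher and 2 lower, as were 27.8% of all genes tested.

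**Figure D4:**
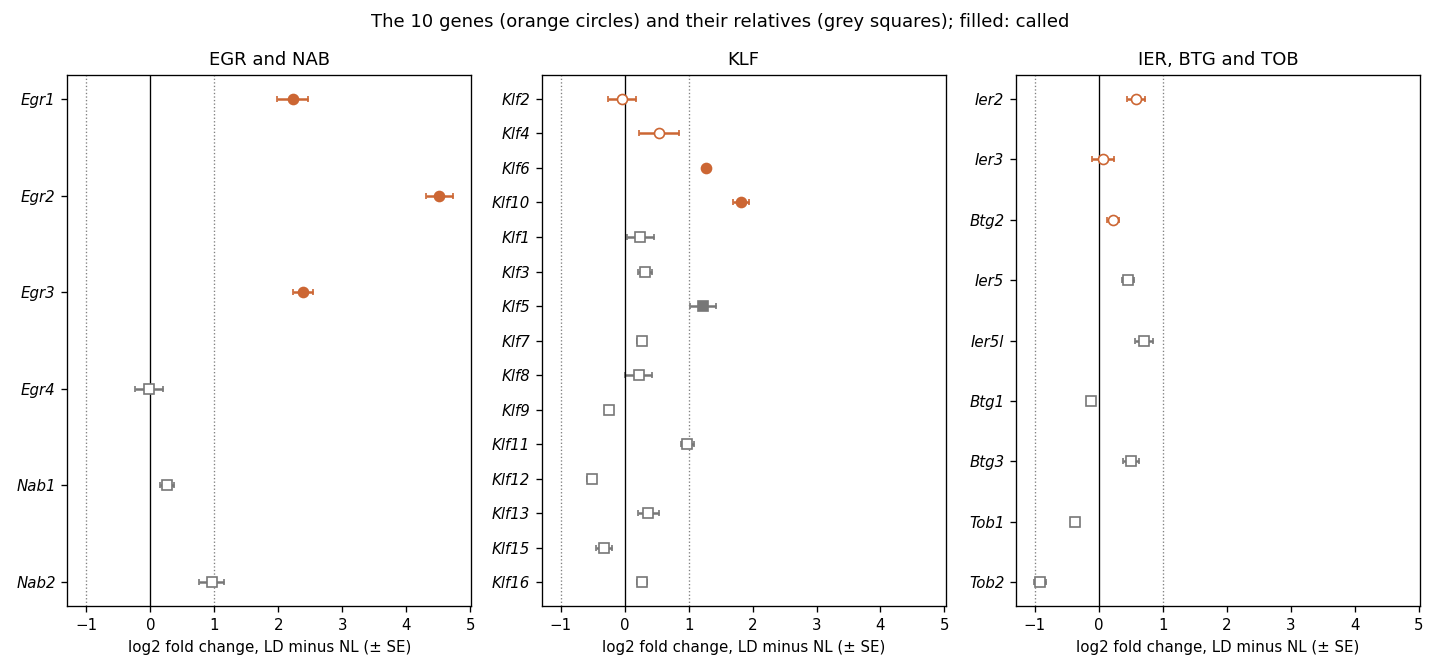
Log2 fold change of LD against NL with its SE (horizontal axis) for the 10 genes (orange circles) and the tested relatives (grey squares), filled where called, with dotted lines at 2-fold. *Egr1*, *Egr2*, *Egr3*, *Klf6*, *Klf10* and *Klf5* are past the line, with *Nab2* and *Klf11* just short of it.

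Many other primary response genes were higher in LD. Of 29 tested, 16 were called higher and 1 lower, where 4.13% and 2.37% of all genes tested were, with a median log2 fold change of 1.31 against -0.01 for all genes. *Socs3*, a feedback inhibitor of cytokine receptor signalling, rose from 2.12 to 51.0 FPKM (log2 fold change 4.46). *Myc*, a growth regulator, rose by 3.61 on the log2 scale, *Atf3*, a stress-induced repressor, by 3.26, and *Junb*, an AP-1 subunit, by 2.79. *Gadd45b*, a stress sensor, rose by 2.65 and *Zfp36*, which destabilises mRNAs rich in AU elements, by 2.18. The gene called lower was *Sgk1*, a kinase induced by glucocorticoids, which fell by 1.22 on the log2 scale, from 68.6 to 29.0 FPKM. With the closest pairs averaged, *Sgk1* was at -1.06 and not called (adjusted p = 0.0111 in limma).

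**Figure D5:**
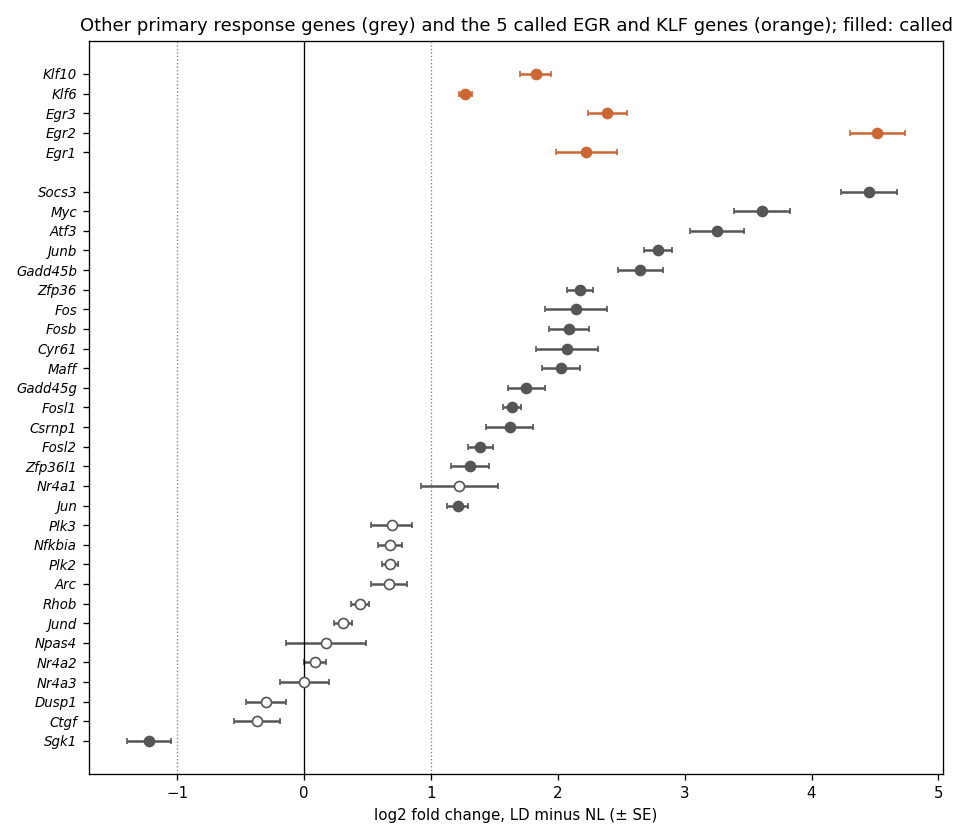
Log2 fold change of LD against NL with its SE (horizontal axis) for the 29 other primary response genes (grey) and for the 5 called EGR and KLF genes (orange), filled where called, with dotted lines at 2-fold. Of the grey points 16 are filled to the right of 2-fold and 1, *Sgk1*, to the left.

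Of the 19 transcription factors and kinases tested that act upstream of these genes, 1 was called higher and 1 lower, where 4.13% of all genes tested were higher and 2.37% lower. The list had a median log2 fold change of 0.02, against -0.01 for all genes. *Elk3*, a ternary complex factor that binds SRF, rose from 0.758 to 2.23 FPKM (log2 fold change 1.41, SE 0.16, adjusted p = 9.29e-05 in limma). *Mef2c*, an activity-dependent factor, fell from 6.05 to 2.10 FPKM (log2 fold change -1.44, SE 0.21, adjusted p = 5.07e-04). With a pseudocount of 1 FPKM *Elk3* was at 0.86 and not called. *Srf* itself had 13.1 and 14.9 FPKM (log2 fold change 0.18, SE 0.07, adjusted p = 0.0648 in limma).

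Cell type markers moved beside the called genes. All 6 rod and 4 of 5 cone markers were called lower. The other cone marker, *Pde6h*, went from 6.53 to 3.49 FPKM without a call (log2 fold change -0.96, adjusted p = 0.0126 in limma). Of the 6 Müller glia markers, *Glul* was called lower and none higher. *Gfap*, which astrocytes and reactive Müller glia express, was the 1 of 4 astrocyte markers called, from 11.4 to 98.7 FPKM. For microglia, *Cx3cr1* and *C1qa* were called higher of 5 markers tested, whose summed level was 15.4 to 26.0 FPKM in NL and 28.7 to 71.7 FPKM in LD. *C1qa* alone went from 10.1 to 37.3 FPKM on average. *Csf1r* and *Tmem119* had log2 fold changes of 0.74 and 0.22 without a call. *P2ry12* went the other way, also without a call, from 2.03 to 1.32 FPKM (log2 fold change -0.74). Markers of blood-borne myeloid cells summed to 0.161 to 0.495 FPKM in NL and 0.735 to 1.40 FPKM in LD, and 1 of 4 tested, *Plac8*, was called. *Plac8* had 0 or 1 read in an NL retina but 5 to 12 reads in each LD retina, so it entered the test through LD. No marker of bipolar, amacrine, horizontal or ganglion cells, pericytes, retinal pigment epithelium or red blood cells was called. The part of these shifts in the levels of the EGR and KLF genes was not tested.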

How the data were processed

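RNA of 10 neural retinas of BALB/c mice was extracted with TRIzol and sequenced. The authors deposited 1 table of FPKM, with gene positions and lengths, which a company had normalized. The submitters' processing notes name TopHat2 2.0.9, Bowtie2 2.0.6 and mm8, yet the positions of 10 of the 10 genes are those of GENCODE M21 on GRCm38. The program that assigned reads to genes and its annotation are not given in the sources used here, nor is use of strand, so antisense reads cannot be told apart. All values (100%, tolerance 0.001) were whole multiples of 1 read, so reads were recovered. The library size in the deposited FPKM was their sum times a factor of 0.951 to 0.968 in NL and 1.041 to 1.069 in LD. Depth per retina was 18965090 to 26832535 reads, and intervals cover counting error only.

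Groups came from the sample labels. The 24508 genes that reached 0.1 FPKM in 5 or more retinas were tested on log2(FPKM + 0.1) in limma 3.58.1 (R 4.3.3) with an intensity trend and Benjamini-Hochberg adjustment. Exact permutation tests used scipy 1.17.1. Fold changes on this scale understate the change of low genes. The 10 genes, the lists and the tests were chosen with earlier results of these data known. All 10 genes are named. Of the lists, called genes are named (the 6 with the largest change where more were called), together with relatives or partners of the 10. For likeness, the 2 genes with the highest r are named. Alternatives changed the pseudocount, filter, scaling, trend, test, threshold, replicate block and the retinas included. The covariate *Xist* was added after the values were seen. Some genes are not reported here, and the marker sums leave them out.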

Additional observations from a re-analysis of the deposited data

Results flagged for a closer look

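*Egr2* in retina NL-8, at 0.103 FPKM from 9 reads, stood apart from the other 4 NL retinas, which had 0 to 0.0277 FPKM from 0 to 2 reads. By Dixon's criterion at 95% this was the only 1 of 20 groups (10 genes in 2 light groups) with such a retina, and chance alone gives about 1 in 20. Without NL-8 the log2 fold change of *Egr2* was 4.68 in place of 4.52.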

How the results depend on the processing

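The same 5 of the 10 genes were called higher under 22 of 24 alternatives. With a filter at a mean of 1 FPKM, 4 were called, because *Egr3* and *Klf4* were then not tested. With an adjusted p under 0.05 and no minimum fold, 6 were, *Ier2* being added. Over the alternatives the log2 fold change was 2.02 to 2.39 for *Egr1*, 1.92 to 6.75 for *Egr2*, 1.07 to 2.94 for *Egr3*, 1.15 to 1.42 for *Klf6* and 1.39 to 2.01 for *Klf10*. *Klf2* turned positive on TPM (0.0654), without the library factor (0.0903), in limma-voom (0.11) and over the 8 retinas whose numbers both groups share (0.0871). Leaving out 1 retina gave -0.118 to 0.129 for *Klf2* and -0.0363 to 0.168 for *Ier3*. The median of all genes moved from -0.01 to 0.11 without the library factor and to 0.12 in limma-voom.

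Over the 8 retinas with shared numbers, the same 5 genes were called and *Klf2* was 0.0871, with and without the replicate block. *Klf11* was called in both. *Klf5*, *Elk3* and *Sgk1* were called without the block and not with it (adjusted p = 0.0302, 0.0138 and 0.0157). Same-numbered retinas had correlations of -0.09 to 0.07 between their deviations, so the numbers were not taken as pairs. Over all genes 1595 were called, against 816 with a pseudocount of 1 FPKM, 1182 over the 8 retinas without the block and 808 with it, 1076 with the closest pairs averaged and 6818 at an adjusted p under 0.05 with no minimum fold. Depth limited *Egr2*, *Klf5*, *Egr3* and *Klf4*, with few reads in NL.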
